A study of Sus scrofa with 8 samples.

Results

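The TIE and VEGF receptors and ligands are 2 receptor and ligand systems of blood vessel growth. Their 8 members here are the TIE receptors TEK and TIE1, the angiopoietins ANGPT1 and ANGPT2, the VEGF receptors KDR and FLT1, and the ligands VEGFA and VEGFB. The members were picked by gene symbol after the counts of these same libraries had been seen, so they were selected on the contrast described below, and their values are given as a description with no test. Of the 8 symbols, 7 had a row among the 24358 genes of the count table.

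The study asked how IRF-1, an interferon-responsive transcription factor, affects RNA levels in pig induced pluripotent stem cells. Bulk RNA-seq was done on 4 libraries. The cells were DOX-hLIF-2i piPSCs, made from porcine embryonic fibroblasts that carried an OCT4 reporter, by lentiviral OSKM factors under doxycycline control. Doxycycline, LIF and a pair of kinase inhibitors were present in the medium of both groups according to the study's methods, whereas the growth protocol in the labels names an LCDMV medium.

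The overexpressing cells had received PB-CAG-IRF1-Flag, a piggyBac vector in which a CAG promoter drives IRF-1 with a Flag tag, together with a transposase plasmid. The control cells had received PB-CAG-Flag. Puromycin selection and passaging followed for both, and feeder cells were depleted by a short plating step before RNA extraction. The methods do not describe the groups as single clones. The genotype in the labels reads overexpression for all 4 libraries, so replicates 1 and 3 were taken as overexpressing and replicates 6 and 8 as control from the study's own legend. IRF1 counts were 8206 and 5485 in the libraries taken as overexpressing and 55 and 56 in the controls, and these values fit that split. The IRF1 counts do not separate the introduced transcript from the endogenous one.

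The libraries held 24923319 counts (overexpressing replicate 1), 20858333 counts (overexpressing replicate 3), 15925429 counts (control replicate 6) and 17097669 counts (control replicate 8). Levels are given in CPM, the usual unit of read counts scaled to a common library size, here by library total and TMM factor. Where 4 values stand in a row, they are in the order overexpressing replicates 1 and 3, then control replicates 6 and 8. A count of 3 was taken as the floor of a library, which equals between 0.121 and 0.192 CPM. Nothing in the labels says that the replicates came from separate cultures, so any p-value measures only the spread between these samples. With 2 libraries against 2, an exact two-sided permutation test cannot give a p below 0.333. Members of a family are not replicates of a condition either.

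In vessels, VEGF ligands bind receptor tyrosine kinases on endothelial cells and start sprouting, while angiopoietins act on the TIE receptors and set how stable the vessel wall is. ANGPT1, released mostly by mural cells, activates TEK, and ANGPT2 can oppose it. Transcription of VEGFA rises in many cell types when oxygen is low, through the HIF factors, and KDR also marks early mesoderm that gives rise to blood and vessels.

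TEK (TIE2), the angiopoietin receptor of endothelial and blood stem cells, had the highest mean control level of the 7 members with a row, also per kilobase of exon. The gene (ENSSSCG00000005122) is read from the minus strand of chromosome 1 (assembly Sscrofa11.1), between 195937431 and 196052751. It had 55 counts in overexpressing replicate 1, 117 counts in overexpressing replicate 3, 855 counts in control replicate 6 and 1087 counts in control replicate 8. In CPM these are 2.21, 5.62, 54.7 and 62.1. Both controls lay far above both overexpressing libraries, and the lower control was 9.73 times the higher overexpressing library. TEK averaged 58.4 ± 5.25 CPM (SD, n = 2) under the empty vector and 3.92 ± 2.41 CPM (SD, n = 2) under IRF-1. The fitted log2 fold change was -3.91 (standard error 0.38). The overexpressing libraries differed from each other by 2.54 times in CPM, so the estimate moved to -4.71 without overexpressing replicate 3 and to -3.36 without overexpressing replicate 1. In bulk samples such as these, fewer cells with TEK transcripts and less TEK RNA per cell cannot be told apart.

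TIE1, a receptor without a classical ligand of its own that pairs with TEK at the cell surface, was counted at a much lower level. Its row (ENSSSCG00000003950, chromosome 6, 167919671 to 167940579, minus strand) had 6 and 3 counts in overexpressing replicates 1 and 3, and 37 and 19 counts in control replicates 6 and 8. The levels were 0.241, 0.144, 2.37 and 1.09 CPM in the same order. Both overexpressing libraries were near the floor, and both controls were clear of it. TIE1 averaged 1.73 ± 0.906 CPM (SD, n = 2) under the empty vector and 0.193 ± 0.0688 CPM (SD, n = 2) under IRF-1. With so few reads the pooled control level was 8.57 times the overexpressing level with a 95% exact interval from 4.21 to 19.7. This interval, like every interval and floor here, covers counting error only. The fitted log2 fold change was -3.09 (standard error 0.65), and without control replicate 6 it was -2.44.

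Per kilobase of exon, TEK exceeded TIE1 in each of the 4 libraries. The ratio of TEK to TIE1 was 13.4 in control replicate 6 and 33.1 in control replicate 8. It was 5.30 and 22.6 in overexpressing replicates 1 and 3. The ranges overlap between the groups, and the overexpressing ratios rest on 6 and 3 counts of TIE1, so no difference in this ratio, or lack of one, is read from them.

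ANGPT1, the activating ligand of TEK, was also lower in the overexpressing cells. The gene (ENSSSCG00000006035) is on the plus strand of chromosome 4, from 29932297 to 30233960. There were 7 and 11 counts in overexpressing replicates 1 and 3 and 41 and 28 counts in control replicates 6 and 8, or 0.282, 0.528, 2.62 and 1.6 CPM. The lower control was 3.03 times the higher overexpressing library, so the groups did not overlap. The means were 0.405 ± 0.175 CPM (SD, n = 2) and 2.11 ± 0.723 CPM (SD, n = 2), and the fitted difference was -2.38 on the log2 scale (standard error 0.55). The pooled control level was 5.28 times the overexpressing level (95% exact interval 3.11 to 9.43).

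ANGPT2, which competes with ANGPT1 for TEK and is stored in endothelial granules, was close to the floor in both groups. Its row (ENSSSCG00000015753, chromosome 15, 37541496 to 37594492, minus strand) had 10 and 1 counts in overexpressing replicates 1 and 3 and 2 and 6 counts in control replicates 6 and 8. The groups overlap completely, and the gene did not pass the filter on low counts. The pooled level of the overexpressing cells was 0.998 times that of the controls, but the 95% exact interval runs from 0.365 to 2.86, so a difference within those bounds was not detectable at this depth. ANGPT2 lies inside MCPH1 on the opposite strand and shares 78 exon bases with it. The strand setting of the counting is not given in the sources used here, so a few of these reads may come from MCPH1.

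KDR (VEGFR2), the main signalling receptor for VEGFA, was sparsely counted. The row (ENSSSCG00000008844, chromosome 8, 41809115 to 41856379, minus strand) had 8 and 0 counts in overexpressing replicates 1 and 3, and 13 and 22 counts in control replicates 6 and 8. These counts equal 0.322, 0, 0.832 and 1.26 CPM. Both controls were above both overexpressing libraries, by 2.58 times between the nearest pair. The means were 0.161 ± 0.228 CPM (SD, n = 2) and 1.04 ± 0.301 CPM (SD, n = 2). The pooled control level was 6.03 times the overexpressing level (95% exact interval 2.75 to 15.1), and the fitted log2 fold change was -2.57 (standard error 0.91). Overexpressing replicate 3 held none of the KDR reads, and without that library the estimate was -1.68. Without overexpressing replicate 1 the fitted value was -7.24, which rests on a group at 0 and is no measure of size.

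FLT1 (VEGFR1), which binds VEGFA tightly and acts largely as a decoy, did not follow the other receptors. Its row (ENSSSCG00000009320, chromosome 11, 5619970 to 5794957, minus strand) had 12 and 16 counts in overexpressing replicates 1 and 3 and 11 and 8 counts in control replicates 6 and 8. In CPM they were 0.483, 0.769, 0.704 and 0.457. The groups overlap, with the highest and the second lowest values in overexpressing libraries. The means were 0.626 ± 0.202 CPM (SD, n = 2) and 0.580 ± 0.174 CPM (SD, n = 2). The overexpressing level was 1.07 times the control level with a 95% exact interval from 0.576 to 2.03, so changes inside those bounds were not detectable at this depth. The fitted log2 fold change was 0.10 (standard error 0.57), and it turned to -0.25 without overexpressing replicate 3 and to -0.17 without control replicate 8.

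The ratio of KDR to FLT1 per kilobase was 1.39 and 3.23 in control replicates 6 and 8, and 0.784 and 0 in overexpressing replicates 1 and 3. These ratios rest on counts of 22 or fewer per gene and library, so no difference in this ratio, or lack of one, is read from them.

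VEGFA, the ligand that drives vessel sprouting through KDR, was the only ligand of the set with more than 100 counts in each library. The gene (ENSSSCG00000001695) is on the plus strand of chromosome 7, from 38746055 to 38762342. It had 229 and 106 counts in overexpressing replicates 1 and 3 and 418 and 207 counts in control replicates 6 and 8, or 9.21, 5.09, 26.7 and 11.8 CPM. The groups did not overlap, but control replicate 8 was only 1.28 times overexpressing replicate 1. Within the controls the libraries differed by 2.26 times, more than across that gap. The group levels were 7.15 ± 2.91 CPM (SD, n = 2) and 19.3 ± 10.5 CPM (SD, n = 2), which the fit put at -1.42 on the log2 scale (standard error 0.43). Without control replicate 6 the estimate was -0.72, and without overexpressing replicate 1 it was -1.90, so the size for VEGFA depends on which library is left in.

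VEGFB, a ligand of FLT1, has an identifier in the reference of gene names that matched no row. RefSeq places it on chromosome 2 of the same assembly, from 7872873 to 7876149, where an unnamed row of the table on the minus strand also covers TRPT1. Another row, on the plus strand, spans VEGFB and several other genes, with 5, 1, 5 and 2 counts. Neither row could be assigned to VEGFB, so VEGFB is not analysed here.

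**Figure D1:**
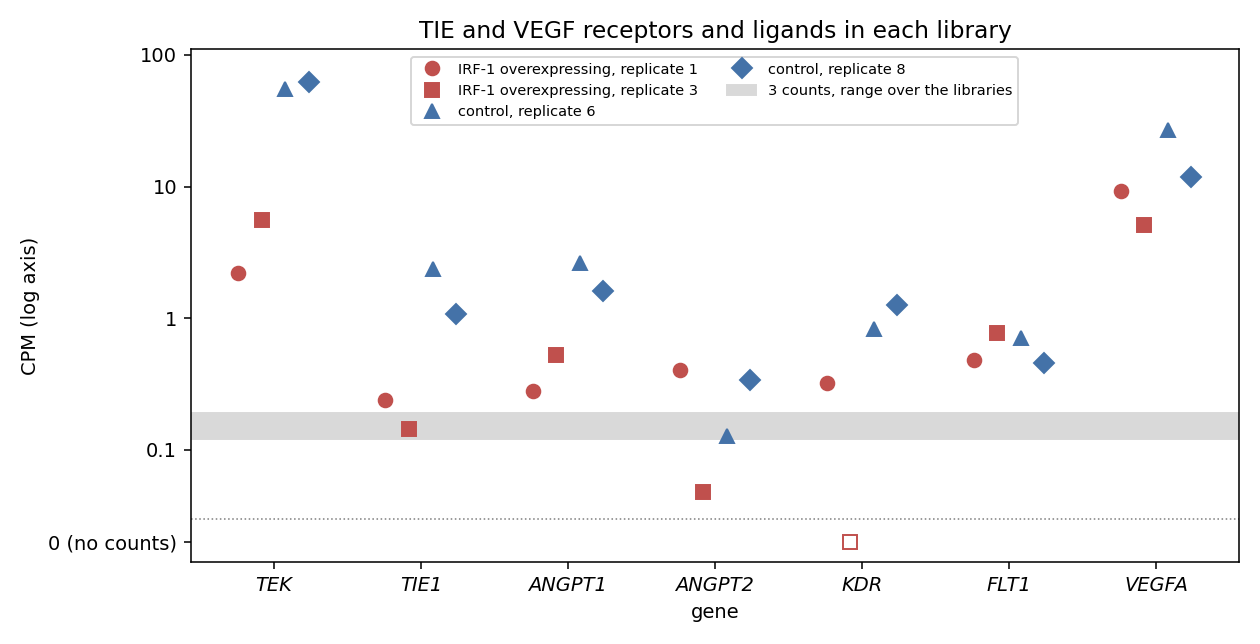
CPM (log axis) of the 7 members with a row in each library, with circles and squares for overexpressing replicates 1 and 3, triangles and diamonds for control replicates 6 and 8, and a grey band for the level of 3 counts. For TEK the overexpressing libraries sit at 2.21 and 5.62 CPM and the controls at 54.7 and 62.1 CPM, the FLT1 and ANGPT2 points of the groups mix, and the open symbol marks the 0 counts of KDR in overexpressing replicate 3.

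Ordered by level per kilobase of exon, the control cells had TEK at 7.78 ± 0.699 (SD, n = 2) and VEGFA at 5.25 ± 2.87 (SD, n = 2) CPM per kilobase, and these neighbours do not differ beyond their spread. TIE1 (0.397 ± 0.208), ANGPT1 (0.371 ± 0.127), KDR (0.172 ± 0.0496), FLT1 (0.0815 ± 0.0245) and ANGPT2 (0.0407 ± 0.0263) followed on the same scale, and TIE1 and ANGPT1 were within their spread of each other. In the control cells 53.1% of the tested genes lay below TEK and 42.8% below VEGFA. In the overexpressing cells the order began with VEGFA at 1.95 ± 0.793 and TEK at 0.521 ± 0.321 CPM per kilobase, and the other 5 genes lay between 0.0265 and 0.0878. TEK then stood above 11.6% of the tested genes and VEGFA above 25.7%. The ratio of TEK to VEGFA per kilobase was 1.00 and 2.57 in control replicates 6 and 8 and 0.117 and 0.540 in overexpressing replicates 1 and 3.

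Of the 6 members that passed the filter on low counts, 5 had both overexpressing libraries below both controls, as did 33.8% of all tested genes. Because the members were picked with this contrast in view, nothing is read from this count, and no calls are given for them. For other genes a call needs both an adjusted p below 0.05 and a change of 1 or more on the log2 scale. Across all 13250 tested genes this edgeR rule called 19.3%, with 8.61% higher and 10.6% lower. The whole comparison called 1141 genes higher and 1410 lower, and without overexpressing replicate 1 these were 756 and 874. The median log2 fold change of all tested genes was -0.002.

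The genes whose profile over the 4 libraries was most like that of a member were found by the root-mean-square difference of centred log2 CPM. For TEK these were PTPRD, a neural receptor phosphatase, at 0.0936, ATP6V1C2, a proton pump subunit, at 0.109, and CRABP2, a retinoic acid carrier, at 0.179. PTPRD had 2.82, 6.25, 72.0 and 73.9 CPM in overexpressing replicates 1 and 3 and control replicates 6 and 8. For TIE1 they were ADAMTS10 (0.0332), GAS6 (0.141) and IKZF2 (0.157). ANGPT1 was closest to RHOC (0.0590), CCDC68 (0.0607) and TRIP6 (0.0631), and VEGFA to SBK2 (0.0704), TCIRG1 (0.0808) and FURIN (0.15). The matches of KDR, with its single empty library, were farther away, and DUOX1 at 0.212 came first, before SLC26A7 (0.363) and C9orf152 (0.401). H2AC20 (0.0549), CA8 (0.0670) and SAC3D1 (0.0729) were nearest to FLT1. With 4 libraries the measure rests on few points, and none of these genes is another member.

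The 7 members with a row lie on 7 chromosomes, so they share no neighbourhood. For each, the nearest tested gene with a symbol on either side was taken, a rule chosen after the values had been seen. Not all are given below. Beside TEK, IFT74, a gene of ciliary transport 33.3 kb away, had a log2 fold change of -0.04 (edgeR adjusted p = 0.897), on 391, 352, 258 and 299 counts in overexpressing replicates 1 and 3 and control replicates 6 and 8, and PPP2R5E, 1280 kb away, had -0.43 (edgeR adjusted p = 0.0489), too small for a call. TMEM125, 32.5 kb from TIE1, fell by 3.02 on the log2 scale (edgeR adjusted p = 0.0213) on 2, 17, 63 and 54 counts. TMEM125 shares 1339 exon bases with an unnamed gene on the opposite strand, so its counts are uncertain. KIT, the stem cell factor receptor gene 316.1 kb from KDR, went the other way from KDR. It rose from 2.23 ± 0.718 CPM (SD, n = 2) to 10.8 ± 2.71 CPM (SD, n = 2), a log2 fold change of 2.26 (edgeR adjusted p = 0.00352), and MAP9 on the other side of KDR had -0.30 (edgeR adjusted p = 0.6). PAN3, 8.32 kb from FLT1, had a log2 fold change of 0.48 (edgeR adjusted p = 0.0798), and POMP on the other side had 0.33 (edgeR adjusted p = 0.165). Of the neighbours of VEGFA, the nearer, MRPS18A at 88.97 kb, had 0.31 (edgeR adjusted p = 0.3), while TMEM63B at 375.4 kb fell by 1.44 (edgeR adjusted p = 0.00289), and each shares exon bases with another gene on the opposite strand. Beside ANGPT1 the log2 fold changes were 1.79 for RSPO2 (edgeR adjusted p = 0.0529) and -0.84 for OXR1 (edgeR adjusted p = 0.00866), neither of them called. MYOM2, 3935 kb from ANGPT2, rose by 2.11 (edgeR adjusted p = 0.0314) on 31, 24, 6 and 3 counts, and AGPAT5 on the other side of ANGPT2 had 0.02 (edgeR adjusted p = 0.934). The neighbours thus went in both directions.

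The list of other VEGF and angiopoietin ligands and receptors had 9 genes. Of these, 8 had a row, 5 were tested, 3 rose and 0 fell (60% called, beside 19.3% of all tested genes), and their median log2 fold change was 1.71 beside -0.002 over all tested genes. The 3 that rose were the co-receptors NRP1 and NRP2 and the matrix protein SVEP1, and 1 was left without overexpressing replicate 1 or with glmTreat. On the lower side, edgeR gave 1 gene (VEGFC) an unadjusted p under 0.05, DESeq2 called 0 genes and limma-voom called 1.

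NRP1, a co-receptor that binds VEGFA and helps KDR to signal, had 945, 461, 143 and 96 counts in overexpressing replicates 1 and 3 and control replicates 6 and 8. It rose from 7.32 ± 2.59 CPM (SD, n = 2) to 30.1 ± 11.2 CPM (SD, n = 2), a log2 fold change of 2.04 (standard error 0.34, edgeR adjusted p = 0.00422). NRP2, the co-receptor better known for VEGFC and lymphatic vessels, had 2466, 1189, 434 and 665 counts in the same order. Its log2 fold change was 1.25 (standard error 0.28, edgeR adjusted p = 0.0127). All overexpressing values of both neuropilins lay above all control values. The NRP2 call was lost without overexpressing replicate 1, where the log2 fold change was 0.81.

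SVEP1, a large matrix protein that binds TIE1 and angiopoietins in lymphatic development, had 109, 44, 14 and 19 counts. Its log2 fold change was 1.71 (edgeR adjusted p = 0.0361), and this call was lost without overexpressing replicate 1 (1.10), control replicate 6 (1.58) or control replicate 8 (1.87), and with limma-voom (1.62). PTPRB (VE-PTP), the phosphatase that dampens TEK, had 58, 21, 9 and 6 counts. The log2 fold change of PTPRB was 1.87 (edgeR adjusted p = 0.056), just outside the threshold. It was called higher without overexpressing replicate 3 (2.35) or without the filter on low counts (1.89). Without overexpressing replicate 1 the PTPRB estimate was smaller, at 1.15. VEGFC, a ligand of FLT4 and KDR, had 9, 22, 36 and 35 counts with a log2 fold change of -1.62 (edgeR adjusted p = 0.0687). The VEGFC estimate ranged widely, from -2.54 without overexpressing replicate 3 to -1.01 without overexpressing replicate 1. It was called lower in the first of these, with limma-voom (-1.79) and without the filter on low counts (-1.597). FLT4, the lymphatic VEGF receptor, had 0, 1, 0 and 4 counts. VEGFD, its other ligand, had 3 counts in control replicate 6 and 0 elsewhere, and ANGPT4, a further TEK ligand, had 1 count in overexpressing replicate 1 and 0 elsewhere. These last 3 genes were at or near the floor in every library, and PGF is not analysed here.

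**Figure D2:**
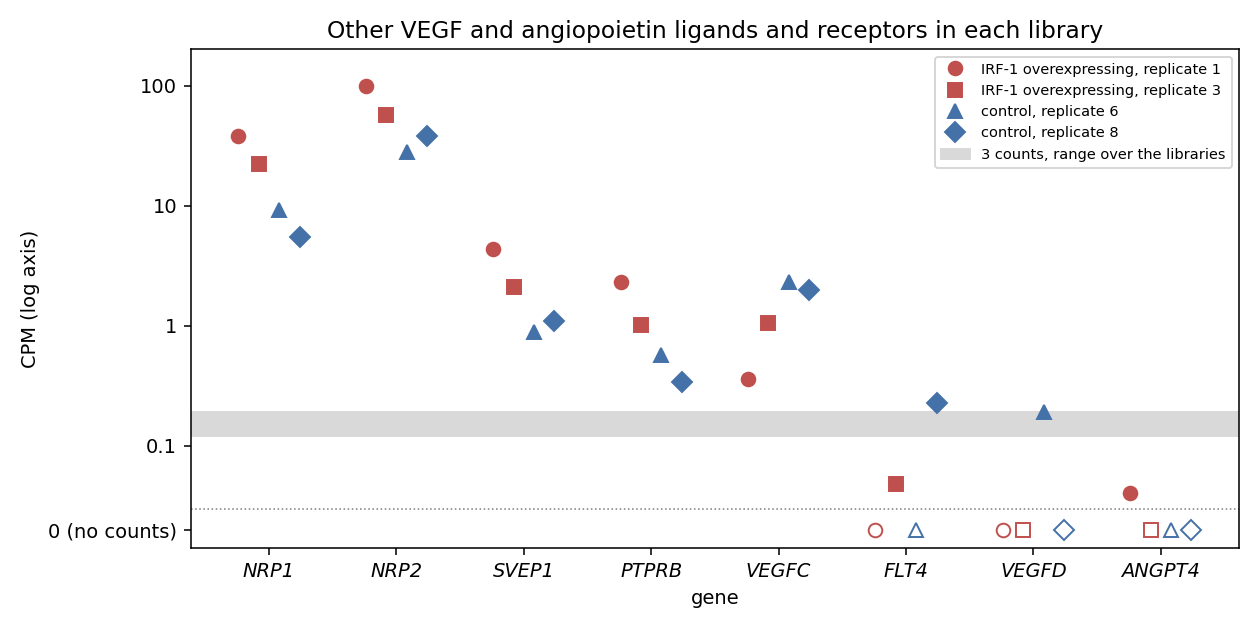
CPM (log axis) of the 8 other VEGF and angiopoietin genes in each library, with circles and squares for overexpressing replicates 1 and 3, triangles and diamonds for control replicates 6 and 8, open symbols for 0 counts and a grey band for the level of 3 counts. NRP1, NRP2, SVEP1 and PTPRB have both overexpressing libraries above both controls, VEGFC has both below, and FLT4, VEGFD and ANGPT4 stay at 4 counts or fewer.

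Among the angiopoietin-like ligands, secreted proteins that resemble angiopoietins but do not bind the TIE receptors in the same way, 7 of 7 genes had a row and 2 were tested, of which 0 rose and 1 fell (50% called, beside 19.3% of all). For the directions without a call in this list and in the blood, mural and pluripotent cell marker lists, edgeR gave 0 genes an unadjusted p under 0.05, and DESeq2 and limma-voom also called 0. ANGPTL2, an inflammatory adipokine, had 8, 6, 36 and 21 counts and fell by 2.49 on the log2 scale (edgeR adjusted p = 0.0148), a call lost without overexpressing replicate 1 (-2.56), overexpressing replicate 3 (-2.41) or control replicate 6 (-1.95). ANGPTL4, a lipase inhibitor that responds to fasting and hypoxia, had 15.8, 16.7, 29.0 and 18.1 CPM with a log2 fold change of -0.53 (edgeR adjusted p = 0.157). ANGPTL7 had 9, 6, 4 and 1 counts and was not tested.

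Downstream of the receptors, the list of VEGF receptor and TIE signalling had 35 tested genes of 39, with 2 higher and 8 lower (28.57% called, beside 19.3% of all), and a median log2 fold change of -0.19. With glmTreat 1 was called higher and 2 lower. Abundant genes of the list were RAC1 (321.1 ± 25.0 CPM against 338.1 ± 36.9 CPM, SD, n = 2 each) and CDC42 (277.9 ± 11.2 CPM against 264.8 ± 5.35 CPM), which carry signals of many receptors. Neither was called by edgeR, with log2 fold changes of -0.07 and 0.07. Among the called genes the adaptors and effectors split.

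SHC1, an adaptor of receptor tyrosine kinases, fell by 1.80 on the log2 scale (edgeR adjusted p = 0.0005), from 178.6 ± 4.38 CPM (SD, n = 2) to 51.3 ± 8.69 CPM (SD, n = 2). PPP3CA, a catalytic subunit of calcineurin, fell by 1.63 (edgeR adjusted p = 0.00105), and RCAN1, the calcineurin inhibitor that VEGF induces in endothelium, rose by 1.01 (edgeR adjusted p = 0.0205). HSPB1, a small heat shock protein phosphorylated downstream of KDR, fell by 1.86 (edgeR adjusted p = 0.0228) and shares 480 exon bases with an unnamed gene on the opposite strand. SH2D2A, an adaptor that binds KDR, rose by 2.51 (edgeR adjusted p = 0.000898), with 17.4 and 14.2 CPM in the overexpressing libraries and 2.56 and 2.97 CPM in the controls. The RCAN1 call was lost without overexpressing replicate 1 (0.86) or control replicate 8 (0.73), and the HSPB1 call without overexpressing replicate 1 (-1.44) or control replicate 6 (-0.99), and with DESeq2 (-1.85).

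The HIF pathway and hypoxia-responsive genes are the class to which VEGFA belongs in many cells. Of 30 genes, 24 were tested, 4 rose and 2 fell, and the median log2 fold change was 0.19. The share called, 25%, is near the 19.3% of all tested genes. Both overexpressing libraries lay above both controls for 14 of these genes and below them for 6 (34.8% and 33.8% of all tested genes), and without a fold minimum 9 were called higher and 4 lower (13.9% and 15.5% of all). MXI1, an antagonist of MYC, rose by 3.61 on the log2 scale (edgeR adjusted p = 0.000422), on 1061, 540, 40 and 53 counts. PFKFB3, a regulator of glycolysis, rose by 2.70 (edgeR adjusted p = 0.0005), and EGLN1, the main oxygen sensor that marks HIF for destruction, rose by 1.56 (edgeR adjusted p = 0.0011). NDRG1, a stress-responsive gene, fell by 3.23 (edgeR adjusted p = 0.0033) on 11, 16, 116 and 69 counts. EGLN3, the sensor related to EGLN1, fell by 1.19 (edgeR adjusted p = 0.00424), a call lost without control replicate 6 (-0.88). The most abundant genes were the glycolytic enzymes ENO1, ALDOA and PGK1, at 1559 ± 46.7, 736.2 ± 11.9 and 637 ± 64.8 CPM (SD, n = 2) under IRF-1 and 1177 ± 82.8, 663.4 ± 24.7 and 383.1 ± 16.6 CPM (SD, n = 2) in the controls. Their log2 fold changes were 0.41, 0.15 and 0.73, below the size needed for a call, and ALDOA shares 269 exon bases with PPP4C. The part of oxygen level in the VEGFA values was not tested.

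Angiogenesis inhibitors and Notch partners of VEGF signalling moved in both directions. Of 15 tested genes, 4 rose and 5 fell (60% called, beside 19.3% of all), with a median log2 fold change of 0.02. THBS1 (thrombospondin), a matrix inhibitor of angiogenesis, had 99, 136, 1539 and 315 counts and fell by 3.47 on the log2 scale (edgeR adjusted p = 0.00997). The size depended on single libraries, with -1.78 without control replicate 6 and -4.23 without control replicate 8. SEMA3F, a semaphorin that signals through NRP2, fell by 2.79 (edgeR adjusted p = 0.00102), although it shares 2222 exon bases with GNAI2 on the same strand. COL18A1, whose C-terminal fragment is endostatin, was the most abundant of the list in the controls, with 227.9, 452.5, 2405 and 1636 CPM, and fell by 2.57 (edgeR adjusted p = 0.00146).

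Of those that rose, SPRY2, a feedback inhibitor of receptor tyrosine kinases, had 366, 217, 30 and 24 counts (log2 fold change 2.94, edgeR adjusted p = 0.00109). HHEX, a homeobox factor of endoderm and blood vessel precursors, rose by 2.59 (edgeR adjusted p = 0.00544). HEY1, a Notch target in arterial cells, rose by 2.36 (edgeR adjusted p = 0.0154), and this call was lost without overexpressing replicate 1 (2.06). Leaving out control replicate 6 gave 3.64 for HEY1, and leaving out control replicate 8 gave 1.68. The related gene HEY2 (named after its values were seen) went the other way. It fell by 1.40 (edgeR adjusted p = 0.0114), on 152, 226, 383 and 354 counts. VASH1, an endothelial feedback inhibitor, rose by 1.30 (edgeR adjusted p = 0.0013). JAG1, a Notch ligand, had 364.6 ± 45.8 CPM (SD, n = 2) against 458.7 ± 40.02 CPM (SD, n = 2) with a log2 fold change of -0.33 (edgeR adjusted p = 0.132).

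TEK and KDR are used as endothelial genes, so the endothelial marker list was read beside them. Of 27 markers, 20 had a row and 8 were tested, with 2 higher and 1 lower (37.5% called, beside 19.3% of all) and a median log2 fold change of -0.35. Their summed level was 30.1, 20.1, 20.1 and 20.3 CPM in overexpressing replicates 1 and 3 and control replicates 6 and 8, of which PROX1 was the largest part in the overexpressing libraries. Without PROX1 the sums were 9.575, 10.52, 16.5 and 16.51 CPM, lower in both overexpressing libraries than in the controls, and most of that difference was 1 gene, ACVRL1, at 0.402, 0.384, 5.63 and 6.11 CPM. ERG, LYVE1, ECSCR, ROBO4 and CLEC14A had 0 counts in all 4 libraries. CDH5, the cadherin of endothelial junctions, had 1 count in control replicate 8 and 0 elsewhere, and PECAM1 had 19, 21, 21 and 16 counts (both named after their values were seen). The part of endothelial cells in the TEK values was not tested.

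The 3 endothelial markers that were called went in different directions. PROX1, a lymphatic and liver homeobox factor and the most abundant gene of the list in the overexpressing libraries, had 20.5, 9.61, 3.58 and 3.83 CPM and rose by 2.02 on the log2 scale (edgeR adjusted p = 0.00755), a call lost without overexpressing replicate 1 (1.39). FLI1, an ETS factor of blood and endothelium, had 30, 32, 1 and 2 counts, a ratio of 15.0 in favour of the overexpressing cells (95% exact interval 4.90 to 74.7, edgeR adjusted p = 0.00511). ACVRL1, a TGF-beta family receptor of endothelium, had 10, 8, 88 and 107 counts, which is -3.88 on the log2 scale (standard error 0.41, edgeR adjusted p = 0.000803). ENG, its co-receptor, had 4.87, 3.89, 4.73 and 4.63 CPM with overlapping groups, and shares 921 exon bases with FPGS.

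Blood cell markers, read because TEK also marks blood stem cells, had 4 tested genes of 11 with 1 higher and 0 lower at the edgeR threshold (25% called, near the 19.3% of all), and a median log2 fold change of -0.28. Their summed level was 16.9, 16.2, 13.8 and 10.5 CPM, of which RUNX1 alone held 7.89, 7.06, 0.576 and 0.743 CPM. CD3E had 0 counts in all 4 libraries. RUNX1, a factor of blood stem cell formation, rose by 3.49 on the log2 scale (edgeR adjusted p = 0.000881) on 196, 147, 9 and 13 counts. CD68, the most abundant of the list in the controls, had 5.95, 6.49, 8.06 and 5.71 CPM, and SPI1 had 1.45, 1.49, 2.37 and 1.54 CPM. CD68 shares 121 exon bases with EIF4A1.

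Mural cell markers are the pericyte and smooth muscle genes of cells that supply ANGPT1. Of 12 genes, 8 were tested, 0 rose and 4 fell at the edgeR threshold (50% called, beside 19.3% of all), and the median log2 fold change was -2.03. KCNJ8 and MYH11 went the other way without a call, at 0.90 (edgeR adjusted p = 0.155) and 0.66 (edgeR adjusted p = 0.5). Summed over the list, the level was 45.3 and 61.7 CPM in overexpressing replicates 1 and 3 and 365.6 and 240.1 CPM in control replicates 6 and 8. PDGFRB, the pericyte receptor for PDGF-B, had 28, 62, 1966 and 978 counts and fell by 5.49 on the log2 scale (edgeR adjusted p = 0.000595). ACTA2, smooth muscle actin, fell by 4.47 (edgeR adjusted p = 0.00102), and DES (desmin) by 3.48 (edgeR adjusted p = 0.00186). Without control replicate 6 the log2 fold changes were -4.79 for PDGFRB and -3.68 for ACTA2, and without overexpressing replicate 3 they were -6.32 and -5.09. NOTCH3, the most abundant gene of the list in each library but control replicate 6, had 19.0, 28.0, 110 and 114.5 CPM and fell by 2.26 (edgeR adjusted p = 0.000468), and it shares 228 exon bases with an unnamed gene. MCAM had 18.2, 23.2, 42.1 and 32.3 CPM with a log2 fold change of -0.85, under the size needed for a call, which it reached without overexpressing replicate 3 (-1.03) or control replicate 8 (-1.01). Without control replicate 8, 7 of the mural genes were called lower. The defining pericyte marker RGS5, named after its values were seen, had 1 count in control replicate 6 and 0 elsewhere. The part of mural cells in the ANGPT1 and TEK values was not tested.

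Fibroblast markers, the genes of the cells of origin, had 5 tested genes of 12 with 1 higher and 2 lower (60% called, beside 19.3% of all), and a median log2 fold change of -1.60. The summed level was 1178, 940.5, 1185 and 1122 CPM, most of it VIM, an intermediate filament gene, at 944.9 ± 127.2 CPM against 1088 ± 22.6 CPM (SD, n = 2 each). Without VIM the sums were 143, 85.57, 80.79 and 50.4 CPM, higher in both overexpressing libraries than in the controls, and most of that was COL1A2. COL1A1 and COL1A2, the chains of type I collagen, went in opposite directions. COL1A1 fell by 1.97 on the log2 scale (edgeR adjusted p = 0.00547), from 12.2 and 7.37 CPM in the controls to 2.37 and 2.60 CPM. COL1A2 rose by 1.08 (edgeR adjusted p = 0.0301), a call lost without overexpressing replicate 1 (0.65) or control replicate 8 (0.78). DCN (decorin) had 3, 1, 19 and 19 counts, a control level 13.1 times the overexpressing level (95% exact interval 4.71 to 50.5, edgeR adjusted p = 0.00651). The DCN call was lost without overexpressing replicate 3, where the fitted log2 fold change was -3.18.

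Trophoblast markers differed most among the marker lists in summed level, with 318.9 and 1173 CPM in overexpressing replicates 1 and 3 and 15680 and 9617 CPM in control replicates 6 and 8. Of 12 genes, 7 were tested, 1 rose and 4 fell (71.43% called, beside 19.3% of all), and the median log2 fold change was -2.68. Most of the sum was KRT8, a keratin of simple epithelia, with 249.9, 1014, 12010 and 7485 CPM, which fell by 3.95 on the log2 scale (edgeR adjusted p = 0.003). KRT18, its partner, fell by 5.77 (edgeR adjusted p = 0.00223), from 3544 and 2034 CPM in the controls to 13.8 and 88.5 CPM. Without KRT8 the sums were 69.04, 158.8, 3670 and 2132 CPM, and in both controls most of that was KRT18. The difference in summed level is thus mostly that of these keratins. Without overexpressing replicate 3 the log2 fold changes were -5.28 for KRT8 and -7.65 for KRT18, and without overexpressing replicate 1 they were -3.25 and -4.96. TFAP2C fell by 2.82 (edgeR adjusted p = 0.000551) and TEAD4 by 2.68 (edgeR adjusted p = 0.000735), whereas TFAP2A, a related AP-2 factor, rose by 3.72 (edgeR adjusted p = 0.000206). HAND1 and CDX2 had 0 counts in all 4 libraries. The part of trophoblast-like cells in the TEK and VEGFA values was not tested.

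Pluripotent cell markers were read to check the labelled cell type. Of 15 genes, 8 had a row and 6 were tested, with 0 higher and 3 lower at the edgeR threshold (50% called, beside 19.3% of all), and a median log2 fold change of -0.87. Their summed level was 304.4, 366.8, 885 and 742.4 CPM. LIN28A, an RNA-binding protein of pluripotent cells and the most abundant of the list, fell by 1.34 on the log2 scale (edgeR adjusted p = 0.00146), from 443.6 ± 87.8 CPM (SD, n = 2) to 175 ± 15.8 CPM (SD, n = 2). LIN28B had 75.3 ± 6.48 CPM against 65.6 ± 2.07 CPM (SD, n = 2 each), with a log2 fold change of 0.20. CDH1 (E-cadherin) fell by 2.25 (edgeR adjusted p = 0.00676) on 631, 1539, 3753 and 4062 counts, and ESRRB, a nuclear receptor of the naive state, fell by 4.19 (edgeR adjusted p = 0.000246) on 31, 37, 502 and 402 counts. Leaving out overexpressing replicate 1 gave -1.66 for CDH1, and leaving out overexpressing replicate 3 gave -3.21. PRDM14 had 0 counts in all 4 libraries, NANOG (named after its values were seen) had 8, 11, 5 and 9 counts, and POU5F1 and SOX2 are not analysed here. PRDM14 was thus at 0 and NANOG close to the floor in both groups, while LIN28A and LIN28B were well above it.

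**Figure D3:**
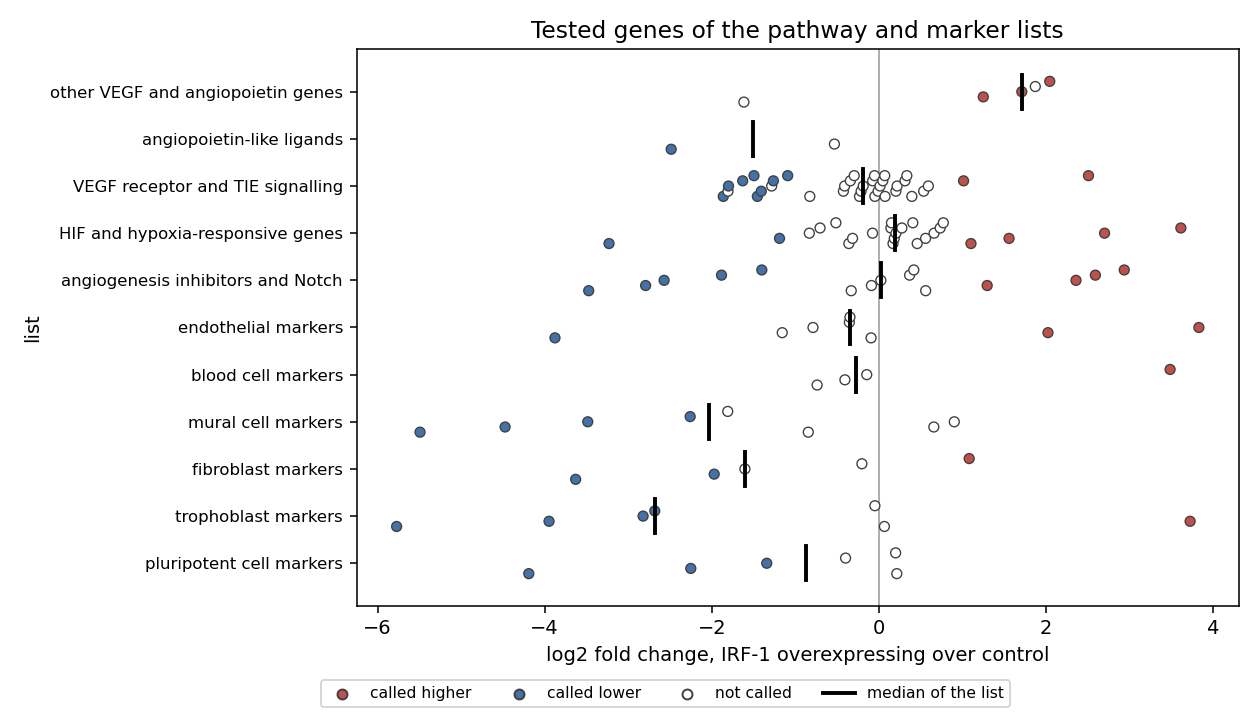
Log2 fold change (overexpressing over control, horizontal axis) of each tested gene in the 11 pathway and marker lists (vertical axis), with red points for genes called higher, blue for genes called lower, white for genes not called and a black bar for the median of the list. The medians run from -2.68 for trophoblast markers to 1.71 for the other VEGF and angiopoietin genes, and 48 list genes were called in all.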

How the data were processed

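For the 4 RNA-seq libraries the authors deposited raw read counts per Ensembl gene, not normalized or pooled, beside the exon length of the gene. The study's methods name HISAT2 with Sus scrofa 11.1, and both featureCounts (1.6.4) and htseq-count for counting. Oligo(dT) selection is named in the labels. Which annotation release was used, whether strand was counted and how multi-mapped reads were handled are not given in the sources used here. The ChIP and input samples, promoter sequences and protein sequences were not analysed here.

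Counts were fitted with edgeR 4.0.16 in R 4.3.3 (TMM factors, filterByExpr by group, quasi-likelihood test, prior count 0.125, common dispersion 0.0313), with Benjamini-Hochberg adjustment over 13250 genes. A call needed an adjusted p below 0.05 together with a change of 1 or more on the log2 scale. A standard error is the fold change divided by the square root of F. SDs are over 2 libraries. Replicates varied beyond counting noise (chi-square per degree of freedom 19.0 in the overexpressing cells and 33.3 in the controls), so counting intervals are too narrow for a difference between conditions. Ratios of pooled counts carry 95% exact (Clopper-Pearson) binomial intervals. Symbols were found for 14692 of 24358 identifiers. The fit was tested on simulated counts. Python 3.11.15, pandas 2.3.3 and matplotlib 3.10.9 made the tables and figures.

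The members and lists were chosen with earlier results of these data known. The genes named are the 8 members, IRF1, all other VEGF and angiopoietin genes, in each other list the 3 highest and 3 lowest called genes and the 3 with the highest mean CPM (for marker lists also those at 0 in all libraries), and the 3 genes most like each tested member. The list medians are the same with genes at the floor set to their bound. The alternatives were RLE, upper quartile and total-count scaling, other filters, DESeq2 1.42.0, voom (limma 3.58.1), glmTreat, no fold minimum, other prior counts, the counts without mitochondrial genes and the 10 highest genes, and each library left out.

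Some list genes and neighbouring genes are not reported here.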

Additional observations from a re-analysis of the deposited data

How the results depend on the processing

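No paired analysis was run, since the replicate numbers come from the sample titles and do not show whether libraries were paired. With glmTreat 611 genes were called higher and 603 lower, and 29 of the list genes were called instead of 48. By list, glmTreat left 1 higher among the other VEGF genes, 0 angiopoietin-like genes, 1 higher and 2 lower in signalling, 3 higher and 1 lower in the HIF list, 2 higher and 3 lower among inhibitors and Notch partners, 1 higher and 1 lower among endothelial, 0 higher and 2 lower among fibroblast and 2 lower among pluripotent cell markers, with the blood, mural and trophoblast counts unchanged. Without a fold minimum 1842 genes were called higher and 2054 lower. When each library was left out in turn, the group with 1 library was assumed to vary like the other. Then 756 to 1162 genes were called higher, 874 to 1548 lower, and 37 to 52 in the lists. The members' log2 fold changes ranged from -4.71 to -3.36 for TEK, from -3.55 to -2.44 for TIE1, from -2.87 to -1.97 for ANGPT1, from -7.24 to -1.68 for KDR, from -1.90 to -0.72 for VEGFA and from -0.25 to 0.43 for FLT1, which was also -0.17 without control replicate 8. With a prior count of 5, which pulls low counts toward 0 by construction, the value was -2.13 for TIE1 and -1.625 for KDR, and limma-voom gave -3.55 for KDR. KDR and FLT1 have no value with the filter of 1 CPM in 2 libraries. Under the scaling alternatives and DESeq2 the members' values moved by less than the spread between libraries, and the median of all genes stayed between -0.01 and 0.00. Where a result moved, the cause was not tested. Depth limits ANGPT2, KDR, FLT1 and TIE1 most, with at most 37 counts in any library.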
